A study of Mus musculus with 6 samples.

Results

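Blood clotting and the dissolving of clots were followed in mouse liver through 35 genes, listed by symbol as the coagulation and fibrinolysis genes and matched to the array through the platform annotation. Of the 35, 34 had a probe set with 1 gene symbol, out of 18194 genes on the array with such a probe set, and each gene was represented by its probe set with the highest mean signal over the 6 arrays. They were described in 2 classes, 23 hepatocyte factors of 24 listed and 11 vascular and other-cell genes. Cpb2, the remaining hepatocyte factor, was not analysed here. All 23 hepatocyte factors were above the floor on all 6 arrays, and 9 of the 11 vascular genes were above it on at least 1 array, which leaves 32 of 13989 measured genes. The floor is a signal of 221.4, the 50th percentile of all deposited values, and lower signals were set to it.

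The livers came from male mice of the inbred strain C57BL6/J. Their total RNA was hybridised to Affymetrix Mouse Genome 430 2.0 arrays, which read a gene's transcript through sets of short probes, and each of the 6 groups had 1 array of RNA pooled from 3 to 4 animals. All mice were 6 to 8 weeks old at the start. Fat made up 21% and sucrose 34% of the weight of the fast-food diet, which also had 0.2% cholesterol and came with glucose and fructose in the drinking water. In the 2-month study the groups were fast food with canertinib mixed into the diet throughout, at an estimated 80 mg/kg per day, fast food alone, and chow. In the 5-month study they were fast food with canertinib given by intraperitoneal injection during the final 5 weeks (80 mg/kg, 5 days a week), fast food with vehicle injected in the same way, and chow, for which the labels name no injection. Canertinib binds irreversibly to and blocks tyrosine kinases of the ERBB family, including the receptor for epidermal growth factor. The groups named here as canertinib therefore all received fast food as well. Each group is 1 array, so a difference within a study has no replicate check and carries no test, standard deviation or p-value. Pooling averages the 3 to 4 livers and hides their spread.

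Hepatocytes make nearly all circulating clotting proteins. Tissue factor and factor VIIa start the extrinsic pathway and the contact system the intrinsic one, both lead through factor Xa to thrombin, and thrombin turns fibrinogen into fibrin. Antithrombin and the protein C system brake thrombin formation, and plasmin, cut from plasminogen by tissue-type or urokinase-type activator, dissolves fibrin. Fibrinogen is also a positive acute phase protein, whose genes are induced in hepatocytes by interleukin-6 through STAT3 and C/EBP factors.

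Promoter sequences were available in the RefSeq table (GRCm38.p6) for 27 of the 35 genes, 20 of them hepatocyte factors. Shown are the 250 bases before the start of the 3 fibrinogen chain genes, which lie next to each other on chromosome 3 with 0 other coding genes between them in the RefSeq annotation of GRCm38.p6, and of F7, F10 and Pros1, 3 factors with large differences described below. Capitals mark matches on either strand to CTGGGA (the core of the type II interleukin-6 response element), TTCNNNGAA (STAT) and TTGCNNAA (C/EBP).
Fga: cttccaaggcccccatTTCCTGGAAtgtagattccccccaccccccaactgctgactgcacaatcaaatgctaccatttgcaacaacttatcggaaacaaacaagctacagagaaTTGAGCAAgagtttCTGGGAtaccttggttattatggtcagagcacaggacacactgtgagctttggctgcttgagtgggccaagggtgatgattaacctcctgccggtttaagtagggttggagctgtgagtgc
Fgb: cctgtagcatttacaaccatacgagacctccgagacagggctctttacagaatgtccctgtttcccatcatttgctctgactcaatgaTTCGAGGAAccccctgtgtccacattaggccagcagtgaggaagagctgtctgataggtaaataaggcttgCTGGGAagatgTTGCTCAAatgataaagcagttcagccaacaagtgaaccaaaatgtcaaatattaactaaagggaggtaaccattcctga
Fgg: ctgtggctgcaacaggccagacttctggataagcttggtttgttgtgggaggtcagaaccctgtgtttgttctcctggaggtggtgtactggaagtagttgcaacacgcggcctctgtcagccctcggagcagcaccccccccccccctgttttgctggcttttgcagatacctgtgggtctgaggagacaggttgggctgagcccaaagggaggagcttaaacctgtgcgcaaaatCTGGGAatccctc
F7: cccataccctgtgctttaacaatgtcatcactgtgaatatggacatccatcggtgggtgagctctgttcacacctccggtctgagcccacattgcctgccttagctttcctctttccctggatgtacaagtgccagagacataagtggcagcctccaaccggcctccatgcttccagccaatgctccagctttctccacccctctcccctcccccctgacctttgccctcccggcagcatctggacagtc
F10: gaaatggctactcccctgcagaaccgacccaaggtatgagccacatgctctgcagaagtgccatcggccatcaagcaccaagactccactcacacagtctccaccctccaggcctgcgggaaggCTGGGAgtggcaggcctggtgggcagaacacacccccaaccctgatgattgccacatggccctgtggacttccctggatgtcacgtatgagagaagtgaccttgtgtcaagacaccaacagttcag
Pros1: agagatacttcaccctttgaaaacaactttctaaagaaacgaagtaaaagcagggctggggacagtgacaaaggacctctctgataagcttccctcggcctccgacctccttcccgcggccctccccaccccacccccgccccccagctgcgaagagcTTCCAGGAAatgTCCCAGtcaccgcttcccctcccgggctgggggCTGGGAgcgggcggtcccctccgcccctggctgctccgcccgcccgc
The sequences run 5′ to 3′ on the strand of the gene. They are chr3:83025903-83026152 on the plus strand for Fga, chr3:83049864-83050113 on the minus strand for Fgb and chr3:83007474-83007723 on the plus strand for Fgg. F7 lies at chr8:13025784-13026033, F10 at chr8:13037058-13037307 and Pros1 at chr16:62854057-62854306, all on the plus strand. For F7 the start in the promoter table was not the outer end of the gene record, and for the other 5 it was.

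Fga and Fgb each held all 3 motifs. In Fga the STAT match began 234 bases before the start, the C/EBP match 135 and CTGGGA 121, and in Fgb they began 162, 80 and 91 bases before it. Fgg held CTGGGA beginning 13 bases before the start and F10 held it 126 bases before. Pros1 held a STAT match beginning 92 bases before the start and CTGGGA at 2 positions, on the opposite strand beginning 80 bases before and on the gene's strand 47 bases before. F7 held none of the 3 in this window. Over the 20 hepatocyte factors, CTGGGA was found in 8, the STAT motif in 4 and the C/EBP motif in 6, where 26.8%, 7.11% and 9.53% of 27025 promoters of the same length held them. The 7 vascular genes with a promoter sequence held them too, CTGGGA in 3, the STAT motif in 1 and the C/EBP motif in 2. Klkb1, with log2 differences of -0.10 and 0.52 between canertinib and fast food at 2 and 5 months, held CTGGGA and a C/EBP match. GTTAAT, the core of HNF1 sites, and TATAAA were also searched on both strands. GTTAAT was in 5 of the 20 and in 6.58% of all promoters, and TATAAA was in 2 of the 20 and in 12.9% of all. The STAT match of F9, beginning 82 bases before the start, overlaps its CTGGGA match on the opposite strand, so the 2 are not separate there. A match is a stretch of letters and not a measured binding site.

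**Figure D1:**
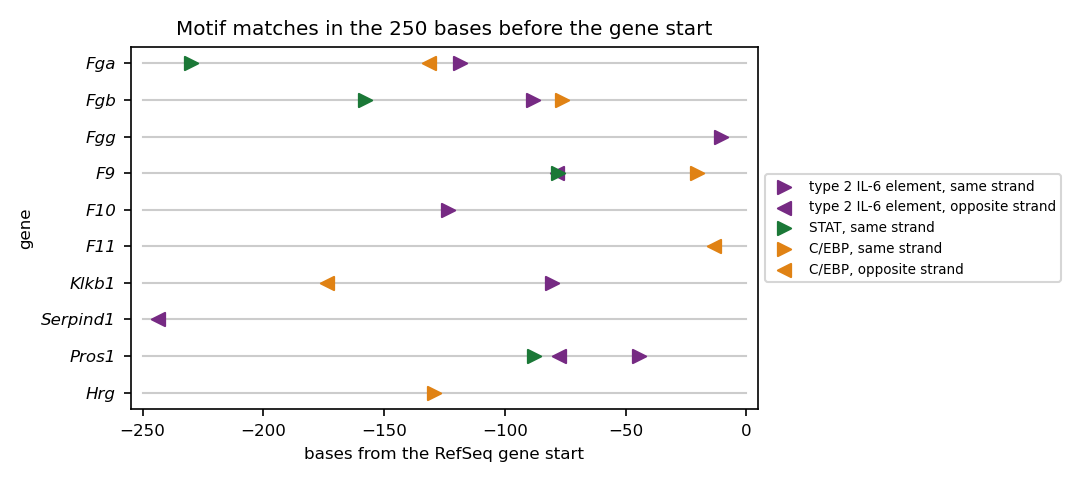
Positions of the CTGGGA (type II interleukin-6 element), TTCNNNGAA (STAT) and TTGCNNAA (C/EBP) matches in the 250 bases before the RefSeq gene start, for the 10 hepatocyte factors with at least 1 of the 3, with the distance from the start in bases on the x axis and the gene on the y axis. Arrowheads stand at the middle of each match and point right for the gene's strand and left for the opposite strand. Fga and Fgb hold all 3 motifs, and so does F9, where STAT and CTGGGA lie on each other.

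On the canertinib arrays most hepatocyte factors stood above both other arrays of the same study, and in the 5-month study fast food alone gave the lowest signal of the 3 arrays for nearly all of them. The canertinib array was the highest of 3 for 20 of the 23 hepatocyte factors in the 2-month study, where this held for 34.2% of all measured genes, and for 18 of the 23 in the 5-month study, where it held for 31.0%. The fast-food array was the lowest for 14 of the 23 at 2 months, against 27.5% of all measured genes, and for 22 of the 23 at 5 months, against 29.2%. Pros1 was the exception at 5 months. Both held together for 12 factors at 2 months and 17 at 5 months, and for 15.4% and 14.9% of measured genes. The summed signal of the 23 factors was 795827 in canertinib livers, 418647 in fast-food livers and 423139 in chow livers at 2 months, and 692344 in canertinib, 333165 in fast-food and 470114 in chow livers at 5 months. Of the 9 measured vascular and other-cell genes, the canertinib array was the highest of 3 for 2 in each study. At 2 months these were Vwf and Thbd. Vwf counts as measured only through its 2-month canertinib array, so its rank there was fixed by that rule.

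**Figure D2:**
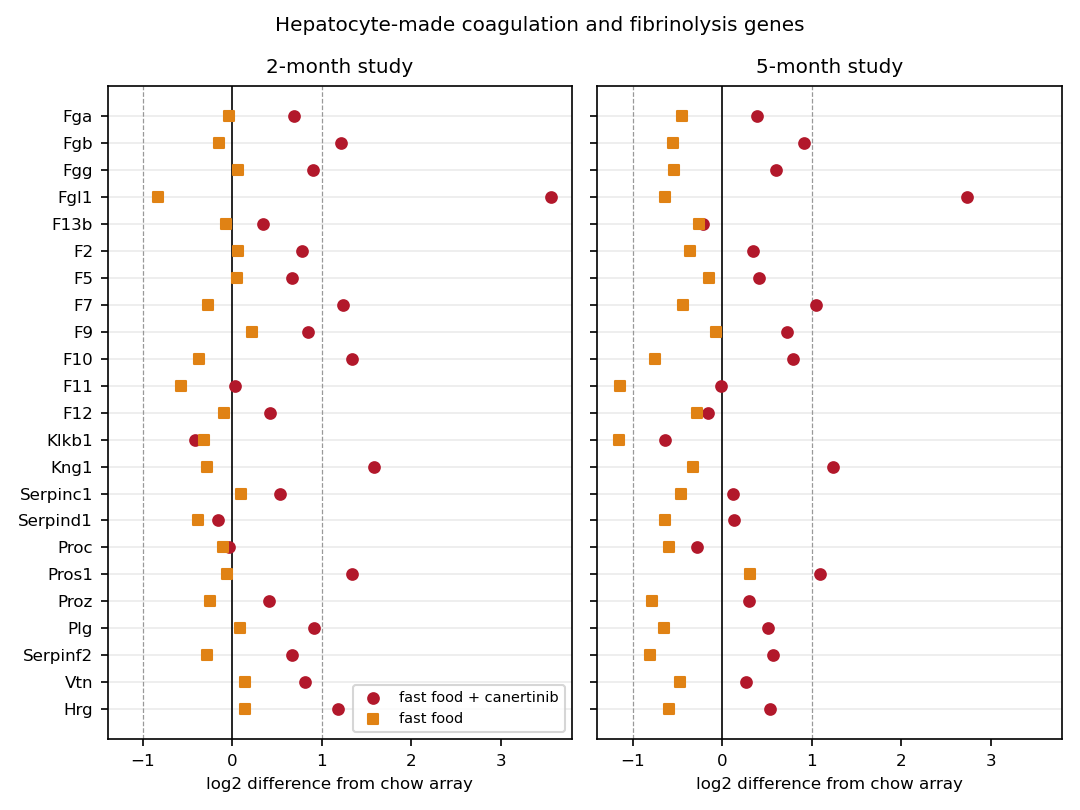
Log2 difference of each of the 23 hepatocyte factors from the chow array of its study, on the x axis, for canertinib with fast food (circles) and fast food alone (squares), with 1 array each and no error bars. Dashed lines mark 2-fold. At 2 months 20 circles lie above 0 and the squares lie around it, and at 5 months 22 of 23 squares lie below 0.

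The first comparison was canertinib with fast food against fast food alone. Of the 23 hepatocyte factors, 7 were at least 2-fold higher at 2 months, where 3.55% of measured genes were, and 11 at 5 months, where 2.19% were. Under quantile normalization 5 were at least 2-fold higher at 2 months and 8 at 5 months, with no share of all measured genes given for that setting. None of the 23 was at least 2-fold lower in either study, where 3.26% and 2.73% of measured genes were. By any amount, 22 of 23 were higher at 2 months and 23 of 23 at 5 months, where 46.3% and 45.3% of measured genes were higher. Over the settings that measured all 23, the number higher ran from 21 to 22 at 2 months and from 22 to 23 at 5 months, and in the setting that measured 21 it was 20 and 21. The median log2 difference of the 23 was 0.72 at 2 months and 0.83 at 5 months, and that of all measured genes was 0 in both. The 6 factors at least 2-fold higher in both studies were Fgb, Fgl1, F7, F10, Kng1 and Hrg, and 0.951% of measured genes met that rule. Of these, 2 lost the call under another scaling. Under quantile normalization Fgb had a log2 difference of 0.95 at 2 months and Hrg of 0.75 at 2 months and 0.87 at 5 months, and Hrg also had 0.93 at 2 months under median scaling and 0.94 at 5 months under loess. By any amount 22 were higher in both studies, where 25.9% of measured genes were.

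A limma fit over all 6 arrays, with treatment and study as terms, gives the only test these data allow. Both studies count in it as repeats of a treatment, although the route and the length of dosing differ, and it has 2 residual degrees of freedom. At a Benjamini-Hochberg adjusted p under 0.05 over all measured genes it called 4 of the 23 hepatocyte factors for canertinib against fast food, all higher, namely Fgl1, F7, F10 and Kng1, where 0.407% of measured genes were called higher and 0.715% in either direction. None of the 9 vascular genes was called, with a lowest adjusted p of 0.197 in limma. At an unadjusted p under 0.05, 16 hepatocyte factors passed, all 16 higher, and 2 vascular genes did, against 14.8% of measured genes. The number of calls moved with the settings: none of the members was called when probe sets of a gene were averaged, 1 without a variance trend, and 9 among the 9874 genes above the floor on all arrays. No share of all genes called is given for these settings, so the counts cannot be set against an array-wide rate.

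Fibrinogen, the precursor of fibrin, is built from 3 chains encoded by Fga, Fgb and Fgg. Fgb had a signal of 96555 in canertinib livers, 37634 in fast-food livers and 41639 in chow livers at 2 months, and of 86178 in canertinib, 31133 in fast-food and 45634 in chow livers at 5 months. Both canertinib arrays lay above the other 4. The log2 difference from fast food was 1.36 at 2 months and 1.47 at 5 months, and limma gave 1.41 ± 0.31 (SE) with an adjusted p of 0.136, so it was not called. The probe set lay at the top of the range of the canertinib arrays, with 7 brighter probe sets at 2 months and 0 at 5 months, and whether the brightest signals are compressed was not tested.

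Fga gave 81126 in canertinib livers, 49164 in fast-food livers and 50231 in chow livers at 2 months, and 68602 in canertinib, 38462 in fast-food and 52468 in chow livers at 5 months. Fgg gave 84830 in canertinib livers, 47444 in fast-food livers and 45340.3 in chow livers at 2 months, and 75555 in canertinib, 34328 in fast-food and 49706 in chow livers at 5 months. For both chains the 2 canertinib arrays were the highest of the 6 and the 5-month fast-food array the lowest. The log2 differences from fast food were 0.72 and 0.83 for Fga and 0.84 and 1.14 for Fgg at 2 and 5 months. Neither was called by limma.

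Fgl1 encodes hepassocin, a fibrinogen-related protein secreted by hepatocytes that lacks the parts needed to form a clot. It showed the widest difference of the 32 measured members and is read by a single probe set. Its signal was 44984 in canertinib livers, 2139 in fast-food livers and 3806 in chow livers at 2 months. At 5 months it was 43894 in canertinib livers, 4221 in fast-food livers and 6561 in chow livers. The 2 canertinib arrays lay close together and far above the other 4. Against fast food the difference was 21.0-fold at 2 months and 10.4-fold at 5 months, and in the limma fit Fgl1 rose by 3.89 ± 0.27 on the log2 scale (SE) with an adjusted p of 0.0127.

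F13b, the carrier subunit of the fibrin-crosslinking factor XIII, moved least in this group. It gave 9033 in canertinib livers, 6770.0 in fast-food livers and 7130.2 in chow livers at 2 months, and 5830.5 in canertinib, 5653 in fast-food and 6753 in chow livers at 5 months. At 5 months the canertinib and fast-food arrays were close together, with a sign that another scaling turned, and chow was the highest.

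**Figure D3:**
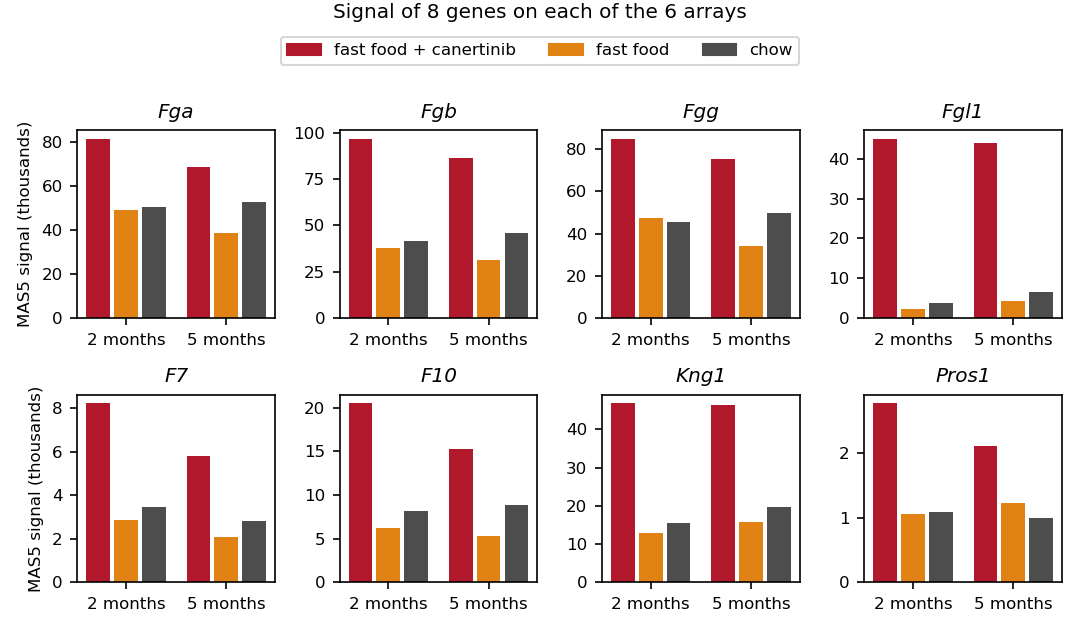
Deposited MAS5 signal, in units of 1000 on a linear axis starting at 0, of 8 hepatocyte factors on each of the 6 arrays, with 1 bar per array and no error bars. In each study the bars run from fast food with canertinib over fast food to chow. The canertinib bar is the tallest in both studies for all 8, with Fgl1 at 44984 and 43894 against 2139 to 6561 on the other arrays.

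Of the enzymes and cofactors that lead to thrombin, F7 and F10 stood out. F7 encodes factor VII, the plasma partner of tissue factor. Its signal was 8219 in canertinib livers, 2878 in fast-food livers and 3484 in chow livers at 2 months, and 5791.5 in canertinib, 2075 in fast-food and 2806 in chow livers at 5 months. Each canertinib array lay above the other 4. F7 was 2.86-fold and 2.79-fold higher than in fast-food livers at 2 and 5 months, and in limma it rose by 1.5 ± 0.12 on the log2 scale (SE) with an adjusted p of 0.0192.

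F10 encodes factor X, which as factor Xa turns prothrombin into thrombin. Its signal was 20473 in canertinib livers, 6268 in fast-food livers and 8115 in chow livers at 2 months, and 15308 in canertinib, 5272 in fast-food and 8840.1 in chow livers at 5 months. The canertinib arrays were again above the other 4. F10 rose by 1.62 ± 0.18 on the log2 scale (SE) in limma, with an adjusted p of 0.0360, and its 2 other probe sets were also higher with canertinib, by 1.71 and 1.13 at 2 months and by 1.25 and 1.40 at 5 months on the log2 scale. F7, F10 and Proz lie next to each other on chromosome 8, with 0 coding genes between them in the RefSeq annotation of GRCm38.p6.

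F2, the prothrombin gene, had a signal of 54255 in canertinib livers, 32830.3 in fast-food livers and 31501 in chow livers at 2 months, and 43657 in canertinib, 26924 in fast-food and 34421 in chow livers at 5 months. It was highest on the canertinib array of each study, with log2 differences from fast food of 0.72 and 0.70. F9, the gene of the intrinsic pathway protease factor IX, gave 13903 in canertinib, 8975.5 in fast-food and 7723.5 in chow livers at 2 months, and 14568 in canertinib, 8388 in fast-food and 8784 in chow livers at 5 months. Both canertinib arrays lay above the other 4, by 0.63 and 0.80 over fast food on the log2 scale. F5, the gene of the cofactor of factor Xa, gave 10139 in canertinib, 6652 in fast-food and 6389 in chow livers at 2 months, and 9626 in canertinib, 6562 in fast-food and 7241 in chow livers at 5 months. Its log2 differences from fast food were 0.61 and 0.55, and those of its second probe set 0.85 and 0.66. None of F2, F9 and F5 was called by limma.

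In the contact system the members parted. Kng1 encodes kininogen, the source of bradykinin and a cofactor for kallikrein and factor XI. Its brighter probe set gave 46764 in canertinib livers, 12812 in fast-food livers and 15601 in chow livers at 2 months, and 46352 in canertinib, 15705 in fast-food and 19610.2 in chow livers at 5 months. Both canertinib arrays were above the other 4. Kng1 rose by 1.71 ± 0.21 on the log2 scale (SE) in limma with an adjusted p of 0.0450, and its second probe set was higher by 0.95 at 2 months and 1.11 at 5 months. The adjusted p of Kng1 reached 0.111 over the other settings. Kng2, a near copy of Kng1 in the mouse genome, was not analysed here, and whether the probes read both cannot be told from the files.

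F11, the factor XI gene, and Klkb1, the gene of plasma prekallikrein, are neighbours on chromosome 8 with 0 coding genes between them in the RefSeq annotation. F11 gave 1369 in canertinib livers, 903.7 in fast-food livers and 1340.1 in chow livers at 2 months, and 1552 in canertinib, 712.3 in fast-food and 1569 in chow livers at 5 months. Klkb1 gave 2862.5 in canertinib livers, 3059 in fast-food livers and 3814 in chow livers at 2 months, and 3049 in canertinib, 2122 in fast-food and 4734.5 in chow livers at 5 months. F11 was thus close to chow on both canertinib arrays, and Klkb1 was below chow on both and was the only hepatocyte factor lower with canertinib than with fast food at 2 months. F12, which encodes the factor XII that starts the contact pathway, gave 7749.5 in canertinib, 5402 in fast-food and 5763.5 in chow livers at 2 months, and 5687.5 in canertinib, 5194 in fast-food and 6321 in chow livers at 5 months. It was highest with canertinib at 2 months and in chow at 5 months.

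Among the hepatocyte-made anticoagulants, Pros1 encodes protein S, the cofactor of activated protein C. It gave 2759 in canertinib livers, 1049 in fast-food livers and 1090.0 in chow livers at 2 months, and 2108 in canertinib, 1225 in fast-food and 990.1 in chow livers at 5 months. The 2 canertinib arrays were the highest of the 6. The log2 difference from fast food was 1.40 at 2 months and 0.78 at 5 months, with 1.09 in limma and an adjusted p of 0.0904. Proc, the gene of protein C itself, gave 10013 in canertinib livers, 9575 in fast-food livers and 10281 in chow livers at 2 months, and 8718 in canertinib, 7007 in fast-food and 10570.1 in chow livers at 5 months, and chow was the highest in both studies.

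Serpinc1 encodes antithrombin, the main inhibitor of thrombin and factor Xa. It gave 66061 in canertinib livers, 48765.5 in fast-food livers and 45586 in chow livers at 2 months, and 60359.5 in canertinib, 40380.4 in fast-food and 55630.5 in chow livers at 5 months. The log2 difference from fast food was 0.44 and 0.58. Serpind1, the gene of the thrombin inhibitor heparin cofactor II, gave 9576 in canertinib, 8230 in fast-food and 10701 in chow livers at 2 months, and 10998 in canertinib, 6466.5 in fast-food and 10062 in chow livers at 5 months. It was lowest on the fast-food array of each study. Proz, the gene of protein Z, which binds factor Xa together with the protein Z-dependent inhibitor, gave 5796 in canertinib, 3667 in fast-food and 4356 in chow livers at 2 months, and 5547 in canertinib, 2613 in fast-food and 4512 in chow livers at 5 months. Its log2 differences from fast food were 0.66 and 1.09. All 5 anticoagulants were above fast food in both studies, except that Proc at 2 months changed sign under another scaling, and none was called by limma.

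In the fibrinolysis and matrix group, Plg encodes plasminogen. Its signal was 57721.5 in canertinib livers, 32547 in fast-food livers and 30580.1 in chow livers at 2 months, and 52901 in canertinib, 23729 in fast-food and 37151 in chow livers at 5 months. Serpinf2 encodes the plasmin inhibitor alpha-2-antiplasmin, and it gave 33037 in canertinib livers, 17058 in fast-food livers and 20785 in chow livers at 2 months, and 27118 in canertinib, 10497 in fast-food and 18300.3 in chow livers at 5 months. Both the protease precursor and its inhibitor were therefore highest on the 2 canertinib arrays. The log2 differences from fast food were 0.83 and 1.16 for Plg and 0.95 and 1.37 for Serpinf2.

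Hrg encodes histidine-rich glycoprotein, which binds plasminogen, fibrinogen and heparin. It gave 42027.5 in canertinib livers, 20479 in fast-food livers and 18568 in chow livers at 2 months, and 33974 in canertinib, 15608 in fast-food and 23507.5 in chow livers at 5 months. It was 2.05-fold and 2.18-fold higher than in fast-food livers, with an adjusted p of 0.166 in limma. Vtn encodes vitronectin, an adhesive protein of plasma and matrix, and gave 86573.5 in canertinib, 54347 in fast-food and 49315 in chow livers at 2 months, and 64972 in canertinib, 38888 in fast-food and 53942 in chow livers at 5 months. It was highest on the canertinib array of each study, by 0.67 and 0.74 over fast food on the log2 scale. Hrg and Kng1 lie near each other on chromosome 16 with 1 coding gene between them in the same annotation.

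**Figure D4:**
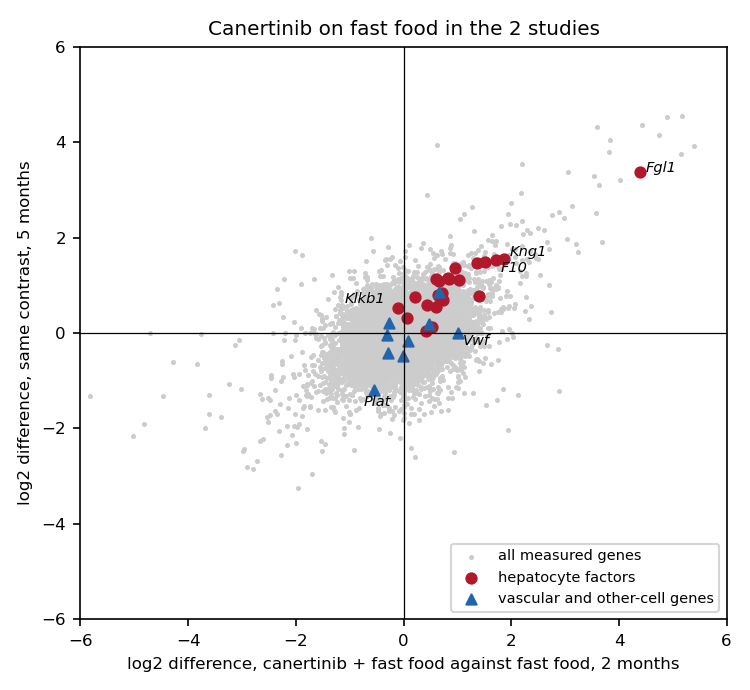
Log2 difference of canertinib with fast food against fast food alone in the 2-month study (x axis) and the 5-month study (y axis), for 13989 measured genes (grey), the 23 hepatocyte factors (circles) and the 9 measured vascular and other-cell genes (triangles). Each point rests on 2 arrays per axis, and genes at the floor on an array are plotted at their bound. The hepatocyte factors lie above 0 on both axes except Klkb1 at 2 months, and Fgl1 lies farthest out at 4.39 and 3.38.

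Fast food against chow was the second comparison. It shares the fast-food arrays with the first, so the 2 sets of differences are not independent and a low fast-food signal raises one and lowers the other. At 2 months none of the 23 hepatocyte factors was at least 2-fold higher, where 1.98% of measured genes were, or lower, where 1.55% were. At 5 months 2 were at least 2-fold lower, F11 and Klkb1, and none higher, where 1.83% and 2.72% of measured genes were. The median log2 difference of the 23 was -0.09 at 2 months and -0.53 at 5 months, and that of all measured genes was 0 in both.

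The 2-month directions were mixed, with 8 factors higher and 15 lower by any amount, where 45.5% and 46.6% of measured genes were, and 11 of the 23 changed sign between the deposited scaling and quantile, loess or median scaling. Over the settings that measured all 23 the number lower at 2 months ran from 11 to 22. At 5 months 22 of 23 were lower, where 49.1% of measured genes were, and 1 was higher, where 43.0% were. Over the same settings 21 to 22 were lower at 5 months, and 20 of 21 in the setting that measured 21. Bright genes were lower there too. The 333 other genes of a mean signal over 10000 had a median log2 difference of -0.22 at 5 months, with 26.4% of them higher, beside a median of -0.53 for the 13 hepatocyte factors of that brightness, and the 9 hepatocyte markers were all lower, with a median of -0.34. Under quantile normalization the medians were -0.04 for the 333 genes and -0.31 for the 13 factors. The mean signal was taken over all arrays, and Fgl1, F10 and F9 exceeded 10000 on the canertinib arrays alone. No hepatocyte factor was 2-fold different in both studies, where 0.751% of measured genes were higher and 0.286% lower, and 14 were lower by any amount in both, where 26.9% were. F11 was lower by 0.57 at 2 months and by 1.14 at 5 months on the log2 scale, and Klkb1 by 0.32 and 1.16. The fibrinogen chains differed by -0.03 (Fga), -0.15 (Fgb) and 0.07 (Fgg) at 2 months and by -0.45, -0.55 and -0.53 at 5 months. Serpinf2 and Proz had 5-month values of -0.80 and -0.79. F10 had -0.37 and -0.75 on its brightest probe set, while another of its probe sets was higher, at 0.88 and 0.33, so the direction of F10 under diet is uncertain. The probe sets of F5, Kng1 and Proz also disagreed in direction at 2 months.

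For fast food against chow, limma called none of the members, with 0.0286% of measured genes called, and the lowest adjusted p among the members was 0.296, for F11 at -0.85 on the log2 scale. At an unadjusted p under 0.05 it passed 8 hepatocyte factors, all lower, where 9.87% of measured genes passed. Between the 2 chow arrays, which differ in study and age, the 23 factors had a median log2 difference of 0.13 at 5 months over 2 months and 18 were higher and 5 lower by any amount, where 45.8% and 46.2% of measured genes were. None was 2-fold different, where 1.28% of measured genes were higher and 1.32% lower by that much or more.

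Canertinib with fast food was also set against chow, a comparison that shares the canertinib arrays with the first and the chow arrays with the second. Here 7 of 23 hepatocyte factors were at least 2-fold higher at 2 months and 4 at 5 months, where 3.8% and 2.82% of measured genes were, and none was 2-fold lower, where 2.74% and 2.72% were. Fgl1, F7, Kng1 and Pros1 were at least 2-fold higher in both studies, a rule met by 1.27% of measured genes, and none was 2-fold lower in both, where 0.793% were. Kng1 lost this call when its probe sets were averaged, with a log2 difference of 0.92 at 5 months. By any amount 20 and 18 of 23 were higher at 2 and 5 months, where 45.2% and 43.3% of measured genes were, and 3 and 5 were lower, where 48.4% were in each study. Over the settings that measured all 23, 19 to 20 and 16 to 19 were higher, and 18 and 16 of 21 in the setting that measured 21. In both studies 17 were higher, where 25.8% of measured genes were. The median log2 difference was 0.78 at 2 months and 0.41 at 5 months. In the limma fit Fgl1 rose by 3.15 on the log2 scale with an adjusted p of 0.0161 and F7 by 1.14 with an adjusted p of 0.0306, where 0.558% of measured genes were called higher and 0.765% in either direction. Neither was called when probe sets of a gene were averaged, with adjusted p-values in limma of 0.0779 for Fgl1 and 0.081 for F7, and F7 was also not called without the variance trend or the study term. Kng1 had 1.41 with an adjusted p of 0.0708, Pros1 1.21 with 0.0807 and F10 1.06 with 0.0909 in limma. At an unadjusted p under 0.05, 10 hepatocyte factors passed, all higher, where 15.6% of measured genes passed. Klkb1 and Proc were below chow on the canertinib arrays of both studies.

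The vascular and other-cell genes come largely from endothelium, macrophages and megakaryocytes, and in whole liver their signals lay near or under the floor. Their median log2 differences were -0.02 at 2 months and -0.03 at 5 months for canertinib against fast food, and 0.08 and -0.08 for fast food against chow. F3, which encodes tissue factor, gave 15.0 in canertinib, 20.2 in fast-food and 79.1 in chow livers at 2 months, and 14.8 in canertinib, 111.7 in fast-food and 131.0 in chow livers at 5 months. F3 and Procr, the gene of the endothelial protein C receptor, were under the floor on all 6 arrays, so no direction can be given for either. Vwf, the gene of von Willebrand factor, gave 444.3 in canertinib, 52.2 in fast-food and 19.8 in chow livers at 2 months, and 112.2 in canertinib, 198.5 in fast-food and 16.5 in chow livers at 5 months. Only the 2-month canertinib array was above the floor, which makes Vwf at least 2.01-fold higher there than in fast-food or chow livers and leaves 5 months without a direction. The bound depends on the floor and the scaling, and on the log2 scale it was 0.92 under loess and 0.47 with the floor at the 60th percentile, both under 2-fold.

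Plat encodes tissue-type plasminogen activator. It gave 241.8 in canertinib, 351.6 in fast-food and 308.0 in chow livers at 2 months, and 256.5 in canertinib, 584.3 in fast-food and 424.9 in chow livers at 5 months. The canertinib array was the lowest of each study, with log2 differences from fast food of -0.54 and -1.19, and limma gave -0.86 with an adjusted p of 0.197. Its second probe set was under the floor on 3 arrays, and the mean over both gave -0.59 at 5 months. Plau, the gene of urokinase, gave 162.3 in canertinib, 273.5 in fast-food and 258.7 in chow livers at 2 months, and 25.8 in canertinib, 226.7 in fast-food and 310.5 in chow livers at 5 months, so it was under the floor on both canertinib arrays and above it on the others. Plaur, the urokinase receptor gene, lay between 410.0 and 672.3 on the 6 arrays.

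Fgl2, a membrane-bound prothrombin-cleaving enzyme of macrophages and endothelium, was above the floor on the 2 fast-food arrays alone, at 224.1 and 311.1, where the bound is at least 1.01-fold and 1.41-fold over chow. F13a1, the catalytic subunit of factor XIII made by macrophages and megakaryocytes, gave 441.4 in canertinib, 278.0 in fast-food and 461.7 in chow livers at 2 months, and 460.2 in canertinib, 252.6 in fast-food and 316.7 in chow livers at 5 months, and was lowest on the fast-food array of each study. Its log2 difference from fast food was 0.67 and 0.87, with an adjusted p of 0.235 in limma. Tfpi, the gene of the inhibitor of the tissue factor complex, was highest on the fast-food array of each study on its brightest probe set, at 619.5 and 463.0. Its other probe sets disagreed at 2 months. On one of them fast food was the lowest, at 223.9 against 300.7 in chow and 324.5 in canertinib livers. Another was highest with canertinib, at 452.2 against 316.8 with fast food, and the remaining one was highest with fast food, at 322.7. At 5 months fast food was the highest on every Tfpi probe set. F8, the gene of the cofactor factor VIII, lay between 508.2 and 674.7 on the 6 arrays. Thbd, the gene of thrombomodulin, which turns thrombin toward protein C, gave 612.7 in canertinib, 444.2 in fast-food and 316.6 in chow livers at 2 months and 326.3 in canertinib, 286.9 in fast-food and 331.4 in chow livers at 5 months.

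**Figure D5:**
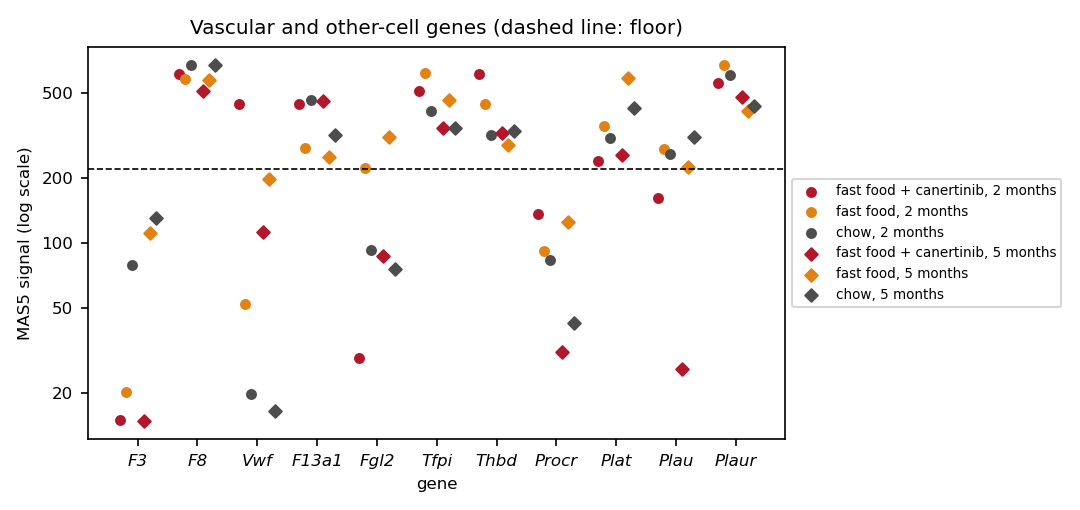
Deposited MAS5 signal on a log axis of the 11 vascular and other-cell genes on each of the 6 arrays, circles for the 2-month and diamonds for the 5-month study, with 1 point per array and no error bars. The dashed line is the floor of 221.4. F3 and Procr lie under it on all arrays, Vwf is above it on 1 array and Fgl2 on 2.

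Of 35 other genes of the pathway, 28 were measured. Serpina10 encodes the protein Z-dependent inhibitor of factor Xa, the partner of protein Z. It gave 31092 in canertinib, 8195.5 in fast-food and 9551 in chow livers at 2 months, and 33454 in canertinib, 9154 in fast-food and 11051 in chow livers at 5 months, and rose by 1.90 on the log2 scale against fast food in limma with an adjusted p of 0.0192. It was the only one of the 28 at least 2-fold higher with canertinib than with fast food in both studies, where 0.951% of measured genes were. For canertinib against fast food limma called 1 of the 28 higher and 1 lower, where 0.407% and 0.307% of measured genes were called. Anxa2, Anxa5 and S100a10 were at least 2-fold higher with fast food than with chow in both studies and at least 2-fold lower with canertinib than with fast food in both, where 0.751% and 0.865% of measured genes were. Anxa2 and S100a10 form a cell surface complex that binds plasminogen and its tissue-type activator, and Anxa5 encodes a phospholipid-binding anticoagulant protein. Anxa2 gave 1252 in canertinib, 4423 in fast-food and 1614 in chow livers at 2 months, and 2991 in canertinib, 7372 in fast-food and 1190.3 in chow livers at 5 months. Anxa5 gave 2794 in canertinib, 6170.4 in fast-food and 1871 in chow livers at 2 months, and 4058 in canertinib, 9454 in fast-food and 1716.5 in chow livers at 5 months. Both were highest on the fast-food array of each study, and limma called neither.

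S100a10 gave 1497 in canertinib, 7450.4 in fast-food and 1839.8 in chow livers at 2 months, and 1429.8 in canertinib, 5961.5 in fast-food and 1550.0 in chow livers at 5 months. The canertinib and chow arrays lay close together. In limma S100a10 fell by 2.19 on the log2 scale with canertinib against fast food (adjusted p of 0.0124) and rose by 1.98 with fast food against chow (adjusted p of 0.0385). Gas6, a vitamin K-dependent protein related to protein S, and A2m, the gene of the broad protease inhibitor alpha-2-macroglobulin, were at least 2-fold higher with canertinib than with chow in both studies, where 1.27% of measured genes were, Gas6 with an adjusted p of 0.0161 in limma and A2m with 0.106. Gas6 gave 4152 in canertinib, 2779.5 in fast-food and 1403 in chow livers at 2 months, and 5477 in canertinib, 4181 in fast-food and 1655 in chow livers at 5 months. A2m gave 676.5 in canertinib, 356.1 in fast-food and 265.9 in chow livers at 2 months, and 834.5 in canertinib, 265.7 in fast-food and 296.8 in chow livers at 5 months. Gas6 was lowest in chow livers and A2m highest in canertinib livers in both studies. Vkorc1, the vitamin K recycling enzyme that warfarin blocks, gave 17730.1 in canertinib, 17226 in fast-food and 17492 in chow livers at 2 months, and 17575 in canertinib, 12704 in fast-food and 17808 in chow livers at 5 months.

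Array-wide values and marker lists were set beside these results, and some moved with them while others did not. The 9 measured hepatocyte markers (such as Alb, Apoa1 and Ttr) were all higher with canertinib than with fast food, with medians of 0.32 and 0.42 on the log2 scale at 2 and 5 months, under the 0.72 and 0.83 of the hepatocyte factors. Their summed signal was 487617 in canertinib, 391338 in fast-food and 335308 in chow livers at 2 months, and 374640 in canertinib, 287240 in fast-food and 368332 in chow livers at 5 months. Genes of a mean signal over 10000, canertinib arrays included, were also compared. The 13 hepatocyte factors among them had medians of 0.84 and 1.14 against fast food and the 333 other genes 0.06 and 0.18. Fgl1, F10 and F9 exceeded 10000 on the canertinib arrays alone, so they entered the 13 through the group where they were high. The medians of the 13 are therefore not independent of the cut. The 12 acute phase genes listed for comparison were all higher with canertinib than with fast food, with medians of 1.93 and 2.35, and the summed signal of the 7 neutrophil markers was 15263 in canertinib, 3051.5 in fast-food and 2714 in chow livers at 2 months, and 16559 in canertinib, 2548.5 in fast-food and 2998 in chow livers at 5 months, with Camp under the floor throughout. The 9 macrophage markers had medians of 0.26 and 0.03 on the log2 scale for canertinib against fast food and of 1.20 and 1.68 for fast food against chow, at 2 and 5 months. The 7 stellate cell markers had -0.17 and -0.76 for canertinib against fast food and 0.81 and 1.46 for fast food against chow. The 10 measured endothelial markers had -0.15 and -0.30 for canertinib against fast food and 0.25 and 0.34 for fast food against chow, with Tie1 under the floor throughout. The summed signal of 6 platelet markers lay between 3045 and 4072 on all arrays, with Gp9 under the floor. The actin probe sets, a check of RNA integrity, had a 3′ minus 5′ log2 difference of 1.19 and 1.12 on the canertinib arrays and of 0.85 to 0.98 on the others. That of the Gapdh probe sets, at -0.20 and -0.14 on the canertinib arrays, lay within the -0.30 to -0.09 of the others. The part of cell mix, acute phase response, RNA integrity and scaling in the differences was not tested. In whole liver fewer cells of a type and less RNA per cell cannot be told apart.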

How the data were processed

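Total liver RNA of 6 groups was measured on 1 Affymetrix Mouse Genome 430 2.0 array each, from 6 ug of RNA pooled from 3 to 4 livers, per the labels. The deposited intensity values are linear MAS5 signals per the submitters' processing notes, in a version not given in the sources used here. With the brightest and dimmest 2% of probe sets left out, every array averages 500, a scaling that the authors had applied before deposit. Arrays have no read depth, so their number and, for dim genes, the floor limit the precision.

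Of 45101 probe sets, 34958 had 1 gene symbol in GEO's platform annotation, 932 several and 9211 none. A gene was represented by its one-symbol probe set with the highest mean signal, and signals under 221.4, the median of the whole table, were set to it before log2 was taken. At least 1 array exceeded this floor for 13989 of 18194 genes. A gene at the floor on 1 of 2 arrays is given as a bound. A difference of at least 2-fold was counted, beside the share of all measured genes. The limma fit (lmFit and eBayes with a variance trend) used treatment and study as terms, with Benjamini-Hochberg adjustment over all measured genes at 0.05, and was tested on simulated data. Its p-values measure the spread between pooled arrays of 2 unlike studies.

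The members and all gene lists, including the marker, acute phase and other pathway lists, were chosen with earlier results of these data known. Given with every array's signal were Fga, Fgb, Fgg, Fgl1, F2, F7, Plg, Serpinc1, F3 and Vwf, members at least 2-fold different in 1 direction in both studies or called by limma, other pathway genes by the same 2-fold rule, and Vkorc1. Further members are given by their signals or by a range of them. Promoters are from the RefSeq table of GRCm38.p6. Its start was the outer end of the gene record in 18 of 29 records of members.

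Alternatives were another normalization (quantile, cyclic loess or median), another floor (the 40th percentile, the 60th percentile or no floor), a restriction to genes that exceed the floor on every array, averaging of a gene's probe sets, removal of the _s_at, _x_at and _a_at probe sets, a 1.5-fold threshold, and limma without the trend or without the study term. The bright-gene medians and the counts of direction over all settings were added after seeing the data. Some listed genes were not analysed here. Analyses used Python 3.11.15 with NumPy 2.4.6, pandas 2.3.3 and SciPy 1.17.1, R 4.3.3 with limma 3.58.1, and matplotlib 3.10.9.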

Additional observations from a re-analysis of the deposited data

Results flagged for a closer look

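Of the members, 2 vascular genes differed in opposite directions in the 2 studies by more than 0.2 on the log2 scale under the same contrast, and the difference between the studies was not tested. Thbd was 0.49 higher in fast-food than in chow livers at 2 months and had a log2 difference of -0.21 at 5 months. Plaur had a log2 difference of -0.28 between canertinib and fast-food livers at 2 months and of 0.22 at 5 months. All of these values except that of Thbd at 2 months lie within 0.398, the standard deviation of the difference between the chow arrays over all measured genes. The share of measured genes that met this rule is not given. With 1 array per group, no search for a sample far from the others of its group was possible.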

How the results depend on the processing

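The medians of the hepatocyte factors stayed above 0 for canertinib against fast food (0.56 to 0.73 at 2 months, 0.74 to 0.91 at 5 months) and against chow (0.36 to 0.78 and 0.33 to 0.46) and below 0 for fast food against chow at 5 months (-0.56 to -0.33) under all alternatives, while the 2-month diet median ran from -0.20 to 0.01. No 2-fold or limma call changed sign. Quantile normalization lowered the 2-month median of canertinib against chow to 0.36, and the cause was not tested. With 1.5-fold in place of 2-fold, which is a looser threshold, the hepatocyte factors counted as higher were 17 at 2 months and 17 at 5 months for canertinib against fast food and 15 and 8 against chow, and those counted as lower were 1 at 2 months and 10 at 5 months for fast food against chow and 1 at 5 months for canertinib against chow. The share of all measured genes at 1.5-fold is not given here. The 1.5-fold counts therefore cannot be set against an array-wide rate. At 1.5-fold the vascular genes counted for canertinib against fast food were 2 and 1 higher at 2 and 5 months, with Plat lower at 5 months. For canertinib against chow 2 were higher at 2 months and 1 was lower at 5 months. For fast food against chow 1 was higher and 1 lower at 2 months. Vwf, the 1 vascular gene counted as higher with canertinib at 2 months, left 0 such genes against fast food and against chow under quantile, loess or median normalization, the floor at the 60th percentile, or the restriction to genes above the floor on all arrays. Plat at 5 months left 0 vascular genes lower against fast food under the floor at the 60th percentile and the mean over probe sets. The share of all genes at least 2-fold different under another floor or normalization is not given here either. The 2-fold counts under those settings therefore cannot be set against an array-wide rate. With the floor at the 40th percentile 1 vascular gene was higher for fast food against chow at 5 months, and 2 were lower with canertinib against fast food and 1 against chow at 5 months. Without a floor, which counts differences among signals near zero, vascular genes were 2 higher and 1 lower (2 months) and 3 higher (5 months) for fast food against chow, 1 (2 months) and 5 (5 months) lower for canertinib against fast food, and 2 lower (2 months), 1 higher and 2 lower (5 months) for canertinib against chow, and the 5-month median of canertinib against fast food was -0.82. The limma count for canertinib against fast food was 9 members among genes above the floor on all arrays, a smaller set of tests, 0 with the mean over probe sets and 1 without the variance trend, and for canertinib against chow it was 6, 0 and 1. For fast food against chow it was 0 in all settings. The labels number no replicates, so pairing rests on the study alone. With no replicate block, that is with the study term left out, limma called 3 members for canertinib against fast food and 1 against chow, and F7 had an adjusted p of 0.0766 and 0.139. No share of all genes called is given for these other limma settings. Of the counts and medians compared with an alternative, 45 moved and 336 did not. A count was taken as unmoved where the larger value was at most 1.5 times the smaller, so smaller changes in a count are among the 336. A single-gene log2 difference was taken as unmoved when it stayed within 0.398 of its main value. That limit is the standard deviation of the difference between the chow arrays over all measured genes. A value that lost its 2-fold call could thus still count as unmoved, as Hrg and Kng1 did above. Of the single-gene comparisons with an alternative, 1678 did not move, 53 moved and 15 lost a limma call.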
